A study of Rattus norvegicus with 6 samples.

Results

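The genes of mitochondrial and peroxisomal fatty acid oxidation were examined here in the ovaries of lean and overfed pregnant rats. The list named 32 genes by their function, not by a measured value, and all 32 were measured, by 47 of the 31042 probe sets on the array that were not controls. A probe set counted only where the platform annotation gave it to 1 gene, and the probe sets of a gene were averaged. They were 32 of 14217 genes treated in this way. Female Rattus norvegicus were on total enteral nutrition, a liquid diet given by tube, for 28 days, the lean group at 155 and the overfed group at 220 kcal per kg of body weight to the power the labels write as ¾. Both groups were then mated with lean males, and ovaries were frozen 4.5 days after mating. Neither strain nor age was given in the labels used here. There were 6 arrays, 3 lean and 3 overfed, each made from 1 RNA pool. The number of ovaries or animals in a pool is not stated, so p-values measure the spread between these pools, which may be technical in part.

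Fatty acids are burned in mitochondria after the carnitine shuttle has carried them inside. There a dehydrogenase, a hydratase, a second dehydrogenase and a thiolase shorten the chain in turn, and peroxisomes do the same for chains that mitochondria handle poorly. Nuclear receptors of the PPAR family, with the coactivator Ppargc1a, switch on many of these genes when fatty acids are abundant. In the ovary, oxidation of fatty acids is known to support the maturing oocyte and its follicle cells, and luteal cells are rich in mitochondria and lipid.

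Deposited values are logarithms, taken here as base 2, from which the median of the 6 arrays had been subtracted for every probe set. Values by pool are given in the order of pools 1, 2 and 3 of each diet. A value therefore tells in which pools a gene was high or low, while its level in the ovary is unknown, and levels of different genes cannot be compared. Array medians lay between -0.0094 and 0.0099, and the spread of all probe sets (SD) was 0.29 in overfed pool 1 and 0.14 to 0.24 in the other pools. Of the ovarian cell type markers, Star, which brings cholesterol to the steroid-making enzymes of the corpus luteum, had 0.090, 0.070 and -0.15 (lean) against -0.45, 0.011 and -0.013 (overfed), and Cyp11a1, the first of those enzymes, had 0.055, 0.10 and -0.19 (lean) against -0.31, 0.013 and -0.013 (overfed). Whether a marker was absent cannot be read from centred values. Markers of the oviduct and of smooth muscle, tissues next to the ovary, differed widely between pools, as given beside the genes that moved with them. In whole-tissue RNA, fewer cells of a type and less RNA per cell cannot be told apart.

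Differences between overfed and lean ovaries were small for most genes of the pathway, as they were for most genes on the array. The median difference over the 32 genes, overfed minus lean, was -0.018, against 0.0079 over all genes, with 14 genes above 0 and 18 below. The difference was under 0.1 in size in 20 of the 32 (62.5%, all genes 56.8%) and under 0.2 in 24 (75%, all genes 83.3%), and 21 were within their own standard error (SE; 65.6%, all genes 60.3%). Of the 14217 genes tested with limma, 0 (percent called, 0) had a Benjamini-Hochberg adjusted p under 0.05. An unadjusted limma p under 0.05 was seen in 1021 genes, and the adjusted count was 1 with a variance trend and robust prior and 2 with genes of smaller SD left out. The smallest adjusted p among the 32 was 0.529, that of the peroxisomal enzyme gene Ehhadh. At that unadjusted p stood 3 of the 32, all with lower values in overfed ovaries, namely Ehhadh, Acsl1 and Acadm. Over all genes 7.18% stood there, 2.76% higher and 4.42% lower. The lean and overfed pools did not overlap in 4 of the 32, with Cpt1b higher and Ehhadh, Acsl1 and Ucp3 lower in overfed pools, where 13.4% of all genes had no overlap, 7.09% higher and 6.35% lower. The count without overlap was 7 without lean pool 2, 9 without overfed pool 1 and 7 without overfed pool 2, where 24.9%, 24.4% and 22.8% of all genes had none. Counted over both directions, the list lay near all genes by either measure. A difference of at least 1.5-fold was seen in 1 of the 32, again Ehhadh, and in 2.26% of all genes. In 26 of the 32 limma's 95% interval for the difference lay inside 1.5-fold in both directions (81.2%), as it did in 85.2% of all genes.

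**Figure D1:**
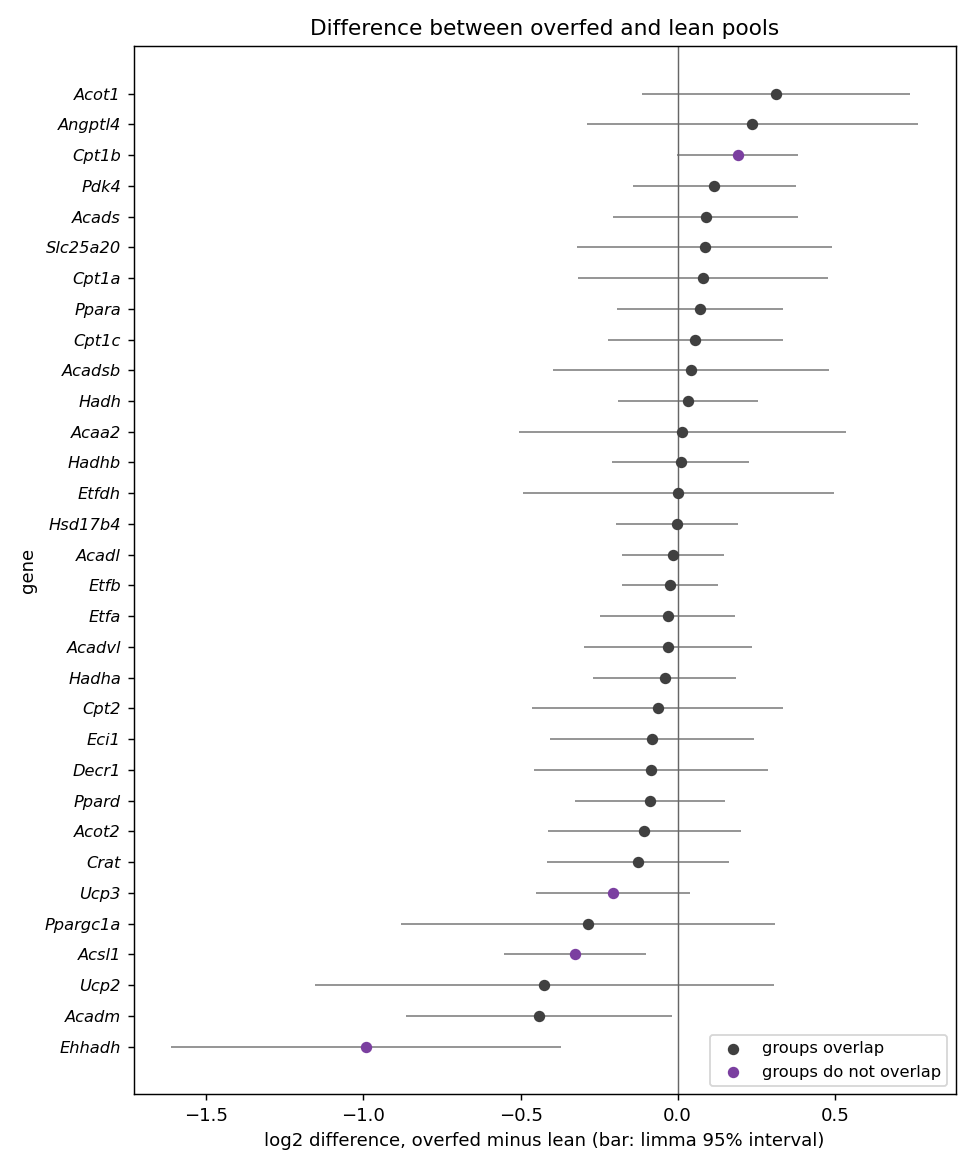
Log2 difference between overfed and lean pools (x axis) for each of the 32 fatty acid oxidation genes (y axis), with limma's 95% interval as bars and colour marking genes whose groups do not overlap. Ehhadh lies apart at -0.99, while 24 of the 32 points lie within 0.2 of 0.

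Ehhadh showed the largest difference. It encodes the peroxisomal bifunctional enzyme, which carries out the hydratase and second dehydrogenase steps there and is a classical PPAR target in rodent liver. Its relative values were 0.46, 0.11 and 1.03 (lean) against -0.73, -0.11 and -0.54 (overfed). All 3 lean pools were above 0 and all 3 overfed pools below it. The difference was -0.99 (SE 0.26, 95% interval -1.61 to -0.37), or 1.99-fold lower if the logarithm has base 2, with a limma adjusted p of 0.529. It lay between -1.20 and -0.61 over the 14 other settings tried, the smaller size without lean pool 3 and overfed pool 1. The other peroxisomal enzyme of the list, Hsd17b4, which does the same 2 steps for branched and very long chains, had 0.0067, 0.13 and -0.024 (lean) against -0.017, -0.0067 and 0.13 (overfed). Its groups overlapped, and its difference was -0.0024 (SE 0.081).

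Acadm, the medium-chain acyl-CoA dehydrogenase, had the second largest difference. Its relative values were 0.35, -0.074 and 0.40 (lean) against -0.45, 0.074 and -0.29 (overfed). Overfed pool 2 was above lean pool 2, so the groups overlapped, and the difference was -0.44 (SE 0.18, 95% interval -0.87 to -0.019, limma adjusted p 0.679). Without lean pool 2 it was -0.59, and without lean pool 3 and overfed pool 1 it was -0.24. Its unadjusted limma p was under 0.05 in 6 of the 14 other settings. It was not without lean pool 1, lean pool 3, overfed pool 1 or overfed pool 3, nor without lean pool 3 and overfed pool 1 together. With quantile normalization, array weights or blocking on pool number it was also above 0.05.

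Ehhadh had the pool order of 4 of the 9 oviduct and ciliated epithelium markers measured (13 listed), the ciliary genes Foxj1, Rsph1, Dnai1 and Tekt1, and Acadm nearly had it. Foxj1, the master regulator of motile cilia, had 0.58, 0.21 and 0.95 (lean) against -0.72, -0.21 and -0.50 (overfed). Rsph1, a radial spoke protein of the ciliary axoneme, had 0.76, 0.27 and 0.78 (lean) against -2.02, -0.27 and -0.96 (overfed). From high to low the order of these 4 ciliary genes was lean pools 3, 1 and 2, then overfed pools 2, 3 and 1, and Ehhadh had exactly that order over the 6 pools. It was the only one of the 32 genes to do so, and 176 of all 14217 genes (1.24%) had it. The order was read from these same values, and the 4 ciliary genes were grouped by it, so this share is a description and not a test. Acadm differed from that order only in that overfed pool 2 and lean pool 2 changed places. The other 5 markers, the epithelial genes Pax8, Epcam, Krt19, Cdh1 and Cldn4, did not have it, and in overfed pool 1 Epcam was at 0.54 and Cldn4 at 0.36. All 9 had a lower mean in overfed ovaries, 5 without overlap, where 6.35% of all genes were lower without overlap. The pool means of the 9 were 0.48, -0.032 and 0.74 (lean) against -0.47, -0.23 and -0.74 (overfed), lowest in overfed pool 3 and not, as for Ehhadh, in overfed pool 1. The part of this tissue in the differences of Ehhadh and Acadm was not tested.

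The promoters of these 2 genes are shown with that of the carnitine carrier gene Slc25a20, whose pools followed another order described further on. They run from 250 bases before to 50 bases after the gene start, 5′ to 3′ along the gene, and come from RefSeq (build GRCr8), where 26 of the 32 genes had an entry. Capitals mark the GC box, GGGCGG or CCGCCC on the other strand.
Ehhadh (GRCr8, chr11:92746159-92746458, plus strand): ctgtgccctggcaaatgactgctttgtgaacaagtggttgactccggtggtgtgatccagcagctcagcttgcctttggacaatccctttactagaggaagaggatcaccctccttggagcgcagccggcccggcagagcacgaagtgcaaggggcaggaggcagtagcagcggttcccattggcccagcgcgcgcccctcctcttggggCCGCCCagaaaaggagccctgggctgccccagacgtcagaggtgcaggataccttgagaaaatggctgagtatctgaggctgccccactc
Acadm (GRCr8, chr2:245542815-245543114, minus strand): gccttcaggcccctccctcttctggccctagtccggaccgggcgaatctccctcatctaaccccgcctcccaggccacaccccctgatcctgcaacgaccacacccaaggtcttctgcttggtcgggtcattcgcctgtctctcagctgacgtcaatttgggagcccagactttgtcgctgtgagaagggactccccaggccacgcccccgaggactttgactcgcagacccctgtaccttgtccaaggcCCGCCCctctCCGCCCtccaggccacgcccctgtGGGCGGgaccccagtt
Slc25a20 (GRCr8, chr8:118243323-118243622, plus strand): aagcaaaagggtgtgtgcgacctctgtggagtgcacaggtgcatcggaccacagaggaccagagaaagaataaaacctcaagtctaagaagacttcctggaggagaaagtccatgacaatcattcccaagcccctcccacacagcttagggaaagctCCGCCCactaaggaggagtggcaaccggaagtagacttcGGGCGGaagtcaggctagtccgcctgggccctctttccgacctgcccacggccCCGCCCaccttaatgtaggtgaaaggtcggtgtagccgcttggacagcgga
Ehhadh held 1 GC box, and Acadm and Slc25a20 held 3 each. A GC box on either strand was found in 17 of the 26 promoters (65.4%) and in 33.1% of all 33469 promoters of the same length. Those 33469 were not limited to genes on the array, so the shares come from unlike sets. The nuclear receptor half-site AGGTCA, also searched on both strands, was in 5 of the 26 (Acadvl, Eci1, Hadhb, Hsd17b4 and Ucp3), or 19.2%, and in 16.2% of all promoters. The full PPAR element, a direct repeat of AGGTCA with any 1 base between its copies, which contains that half-site, had no exact match in the 26 and was in 0.0538% of all promoters. These matches describe letters in a short window and say nothing of binding.

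**Figure D2:**
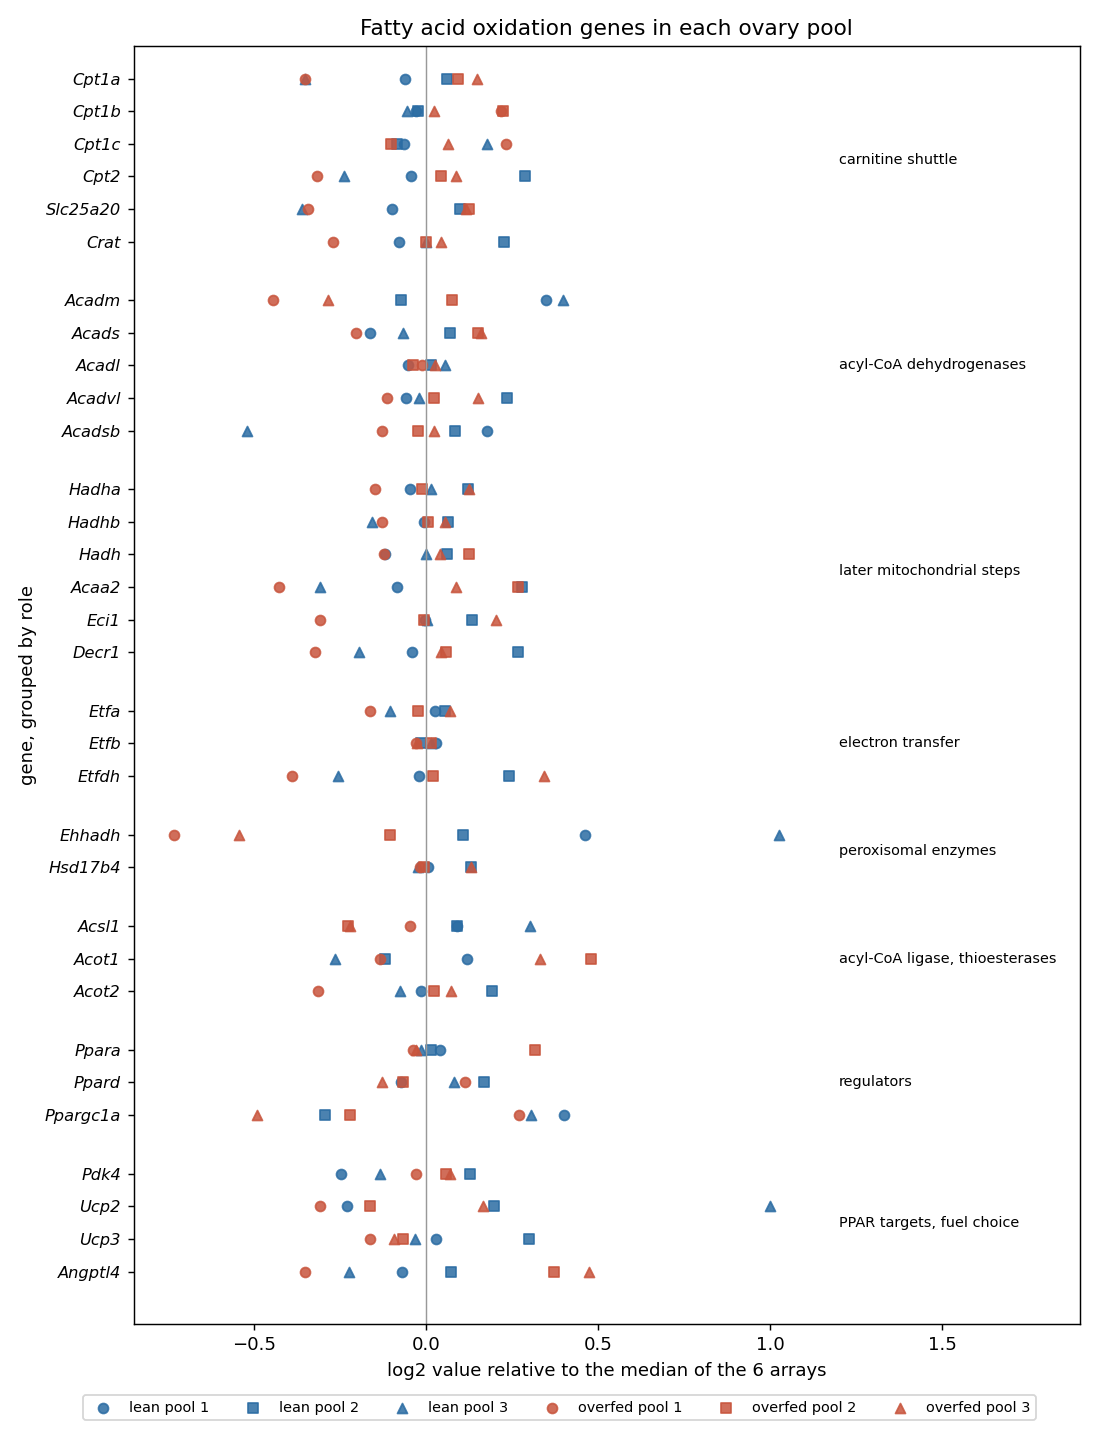
Relative log2 value (x axis) of each of the 32 genes, grouped by role (y axis), in the 3 lean pools (blue) and 3 overfed pools (red), 1 point per pool. Overfed pool 1 (red circles) is the lowest overfed pool in 26 of the 32 genes, and the lean points of Ehhadh all lie to the right of its overfed points.

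The carnitine shuttle showed 4 genes above and 2 below 0. Cpt1a makes the liver form of carnitine palmitoyltransferase 1, the rate-limiting and malonyl-CoA-sensitive entry step. Its relative values were -0.061, 0.061 and -0.35 (lean) against -0.35, 0.093 and 0.15 (overfed). Lean pool 3 and overfed pool 1 were equally low and the other pools lay close together, so the difference was 0.080 (SE 0.17) with a limma adjusted p of 0.956. Cpt1b, the muscle form, had -0.029, -0.024 and -0.056 (lean) against 0.22, 0.22 and 0.024 (overfed). Here every overfed pool was above every lean pool, although overfed pool 3 was so by little. Its difference was 0.19 (SE 0.081, 95% interval -0.0014 to 0.38, limma adjusted p 0.697), and it ran from 0.15 to 0.26 over the other settings. The list of 10 skeletal muscle markers, 4 higher and 6 lower, had pool means of 0.058, -0.30 and 0.18 (lean) against 0.42, -0.031 and -0.24 (overfed). The high mean of overfed pool 1 came with 1 gene, Acta1, at 3.30 there, and the median of the 10 markers was 0.043 in that pool against 0.050 and 0.12 in lean pools 1 and 3. Overfed pools 2 and 3 had lower means than lean pools 1 and 3, unlike Cpt1b. Of single markers, 1 of the 10 had no overlap (all genes 13.4%), the myosin light chain gene Myl1, named after its values were seen. It had -0.079, -0.15 and -0.12 (lean) against 0.079, 0.24 and 0.23 (overfed), with every overfed pool above every lean pool as for Cpt1b, and a difference of 0.30 (SE 0.076) with a limma adjusted p of 0.529. The first markers of the list, Acta1 and Ckm, were at 0.62 (SE 1.51) and 0.030 (SE 0.16). The part of muscle in the Cpt1b values was not tested.

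Of the other shuttle genes, Cpt1c, the form of brain, was at 0.056 (SE 0.12). Cpt2, which rebuilds acyl-CoA on the inner side of the membrane, was at -0.064 (SE 0.17). Slc25a20, the carrier that exchanges acylcarnitine for carnitine, had -0.10, 0.10 and -0.36 (lean) against -0.34, 0.12 and 0.12 (overfed). As for Cpt1a, lean pool 3 and overfed pool 1 were the low pools, and the difference was 0.086 (SE 0.17). Crat, which attaches short chains to carnitine, was at -0.13 (SE 0.12).

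Apart from Acadm, the acyl-CoA dehydrogenases differed little. Acadvl, which starts the oxidation of very long chains, had -0.059, 0.24 and -0.022 (lean) against -0.11, 0.022 and 0.15 (overfed). The groups lay across each other, with a difference of -0.032 (SE 0.11). Acads, for short chains, was at 0.089 (SE 0.12), and it was 0.21 without overfed pool 1. Acadl, for long chains, stayed between -0.051 and 0.056 in all 6 pools, with a difference of -0.014 (SE 0.068). Acadsb, for short branched chains, was at 0.043 (SE 0.18), with lean pool 3 far below the others at -0.52.

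In the later mitochondrial steps the groups lay close, with 3 genes above and 3 below 0 and each difference smaller than its SE. Hadha and Hadhb, the subunits of the trifunctional protein, were at -0.042 (SE 0.095) and 0.010 (SE 0.091). Hadh, the short-chain hydroxyacyl-CoA dehydrogenase, was at 0.034 (SE 0.093). Acaa2, the mitochondrial thiolase, had -0.086, 0.28 and -0.31 (lean) against -0.43, 0.27 and 0.086 (overfed). Pools of the same diet lay far apart, whereas the difference of the group means was 0.014 (SE 0.22). Eci1 and Decr1, which prepare unsaturated chains for the spiral, were at -0.082 (SE 0.14) and -0.085 (SE 0.16). For these 6 genes the 95% intervals reached from -0.51 at the lowest to 0.53 at the highest.

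Electrons from the dehydrogenases pass to the flavoprotein Etfa and Etfb and on to its oxidoreductase Etfdh. Etfa was at -0.031 (SE 0.090) and Etfb at -0.023 (SE 0.064), and all 6 values of Etfb lay between -0.029 and 0.027. Etfdh had -0.019, 0.24 and -0.25 (lean) against -0.39, 0.019 and 0.34 (overfed). Its pools spread widely within each diet, and the group means were almost equal, at 0.0022 (SE 0.21).

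Among the genes that make or split acyl-CoA, Acsl1 was lower in every overfed pool when its 3 probe sets were averaged. It is the ligase that activates long-chain fatty acids. Its relative values were 0.090, 0.091 and 0.30 (lean) against -0.048, -0.23 and -0.22 (overfed). The difference was -0.33 (SE 0.095, 95% interval -0.55 to -0.10), or 1.25-fold lower in base 2, with a limma adjusted p of 0.559. Its 3 probe sets differed by -0.12, -0.35 and -0.51. In the probe set at -0.12 the groups overlapped, with overfed pool 2 at 0.084 above lean pools 1 and 3. The gene ran from -0.39 to -0.26 over the other settings. Unlike Ehhadh and the ciliary genes, its lowest overfed values were in pools 2 and 3. The 12 adipocyte markers measured of 13, 3 higher and 9 lower, all with overlapping groups, had pool means of 0.15, -0.18 and 0.46 (lean) against 0.058, -0.28 and -0.080 (overfed). They too were highest in lean pool 3 and lowest in overfed pool 2, although Acsl1 was nearly as low in overfed pool 3. In lean pool 2 their mean of -0.18 lay below overfed pools 1 and 3, whereas Acsl1 at 0.091 lay above every overfed pool. The part of these markers in the Acsl1 difference was not tested. Fat cells are rich in Acsl1. The adipocyte hormone Adipoq was at -0.26 (SE 0.35) and Lep at -0.14 (SE 0.11).

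The thioesterases Acot1 and Acot2 split acyl-CoA in the cytosol and in mitochondria. Acot1 had 0.12, -0.12 and -0.27 (lean) against -0.13, 0.48 and 0.33 (overfed). Overfed pools 2 and 3 were above all lean pools while overfed pool 1 lay among them, and the difference was 0.31 (SE 0.18) with a limma adjusted p of 0.796. Acot2 was at -0.11 (SE 0.13). The genes are close copies, and 1 probe set that the annotation gives to both was left out; it differed by 0.17. How far single probe sets tell the copies apart is uncertain.

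The regulators were within the spread of the pools. Ppara, the fatty acid sensor that drives oxidation in liver, had 0.039, 0.015 and -0.015 (lean) against -0.038, 0.32 and -0.030 (overfed). Overfed pool 2 alone was high, and the difference was 0.070 (SE 0.11). Ppard, its more widely expressed relative, had -0.072, 0.17 and 0.082 (lean) against 0.11, -0.066 and -0.13 (overfed). Its groups overlapped, at -0.087 (SE 0.10). Ppargc1a, the coactivator of mitochondrial biogenesis, had 0.40, -0.29 and 0.31 (lean) against 0.27, -0.22 and -0.49 (overfed). Lean pool 2 was low with overfed pools 2 and 3, and overfed pool 1 was high with lean pools 1 and 3, which left a difference of -0.28 (SE 0.25, 95% interval -0.88 to 0.31, limma adjusted p 0.869). The 8 smooth muscle markers split the pools in the same way, with means of 0.38, -1.04 and 0.65 (lean) against 0.92, -0.40 and -0.59 (overfed), and their part in the Ppargc1a values was not tested. Its 3 probe sets lay between -0.34 and -0.17. Without lean pool 2 its difference was -0.50.

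Of 4 genes that PPARs commonly induce, 2 were above and 2 below 0. Pdk4, the kinase that turns off pyruvate dehydrogenase so that fatty acids are burned, had -0.25, 0.13 and -0.13 (lean) against -0.030, 0.059 and 0.070 (overfed), a difference of 0.12 (SE 0.11). Its overfed pools lay inside the range of the lean pools. Angptl4, a secreted inhibitor of lipoprotein lipase, had -0.071, 0.071 and -0.23 (lean) against -0.35, 0.37 and 0.47 (overfed). Overfed pools 2 and 3 were the highest of all 6 and overfed pool 1 the lowest, so that the difference of 0.24 (SE 0.22) was within the spread. Ucp2, a mitochondrial uncoupling protein also found in leukocytes, had -0.23, 0.20 and 1.00 (lean) against -0.31, -0.16 and 0.16 (overfed). Lean pool 3 stood far above the rest. The difference was -0.42 (SE 0.31), and -0.086 without that pool. Ucp3, the muscle uncoupling protein, had 0.029, 0.30 and -0.033 (lean) against -0.16, -0.069 and -0.092 (overfed). As the average of 2 probe sets, the overfed pools were all below the lean pools, lean pool 3 only just above them. In each probe set alone the groups overlapped. The difference was -0.21 (SE 0.10) with a limma adjusted p of 0.761, and it was -0.11 without lean pool 2.

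The list also had a pattern between pools that cut across the diets. Overfed pool 1 was the lowest overfed pool in 26 of the 32 genes (81.2%), against 41.2% of all genes, and 28 of the 32 were below 0 there, against 52.6% of all genes. Among lean pools, 16 of the 32 were lowest in pool 3 (50%, all genes 36.2%) and 21 were highest in pool 2 (65.6%, all genes 36.7%). Both pools were the low ones of their group in 15 of the 32 (46.9%, all genes 19.2%), which included Cpt1a, Cpt2, Slc25a20, Hadhb, Acaa2, Decr1, Etfa and Etfdh. The same held for 12 of the 18 other mitochondrial acyl-CoA genes (66.7%) and 7 of 13 genes of mitochondrial content (53.8%). It also held for 10 of 21 fatty acid synthesis genes (47.6%), so these lists showed it at least as often. Of the other peroxisomal oxidation genes, 6 of 19 (31.6%) showed it, a smaller share than in the 32. Averaged over the 22 enzymes and carriers of the oxidation steps, the pool means were 0.0033, 0.11 and -0.044 (lean) against -0.21, 0.041 and 0.049 (overfed). The range within a diet exceeded the difference between diets in 30 of the 32 genes (93.8%), the same as in 93.6% of all genes. These counts describe the pools, and genes of a pool share its RNA and its array.

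Of the 8 corpus luteum markers, 7 were lowest in lean pool 3 and 7 in overfed pool 1, and their pool means were -0.088, 0.20 and -0.30 (lean) against -0.41, 0.035 and 0.024 (overfed). The 8 smooth muscle markers, 3 higher and 5 lower, ran the other way, with all 8 above 0 in lean pool 3 and overfed pool 1 and all 8 below 0 in lean pool 2. Their contractile genes Myh11 and Cnn1 had differences of 0.0078 (SE 0.44) and -0.063 (SE 0.77). The 7 granulosa cell markers measured of 8, 5 higher and 2 lower, had means of -0.23, -0.038 and -0.15 (lean) against -0.17, 0.054 and 0.22 (overfed), with Inha at 0.11 (SE 0.19) and Inhba at 0.60 (SE 0.20). The 8 macrophage markers were all higher in overfed ovaries, 4 without overlap, where 7.09% of all genes were higher without overlap. The means of the 8 were -0.11, -0.18 and -0.082 (lean) against 0.13, 0.048 and 0.21 (overfed), with Cd68 at 0.032 (SE 0.13) and Adgre1 at 0.21 (SE 0.12). The part of these cell types in the pool pattern was not tested.

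**Figure D3:**
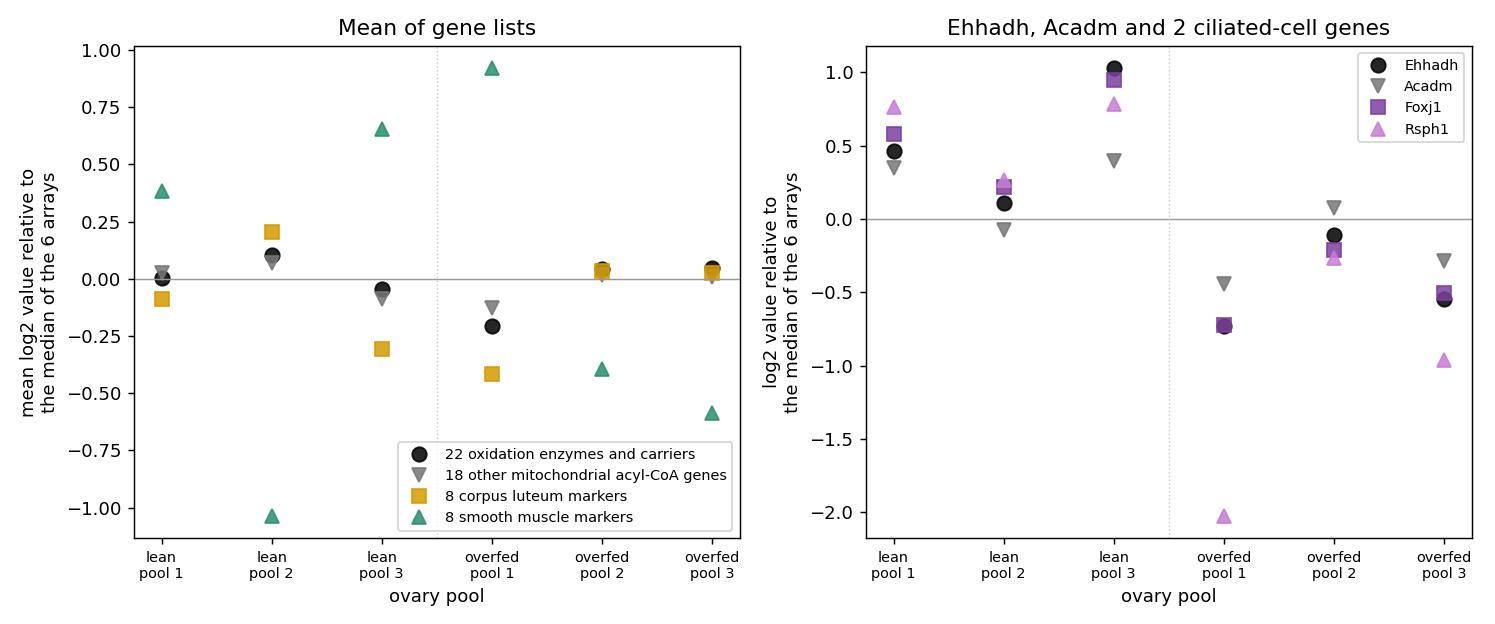
Relative log2 values (y axis) in each of the 6 pools (x axis). On the left, means of 22 oxidation enzymes and carriers, 18 other mitochondrial acyl-CoA genes, 8 corpus luteum markers and 8 smooth muscle markers, where the first 3 lists are lowest in overfed pool 1 and smooth muscle is highest there; on the right, Ehhadh and Acadm with the ciliary genes Foxj1 and Rsph1.

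Overfed pool 1 was the lowest overfed pool in 26 of the 32 genes, Angptl4 and Acot1 among them, so leaving it out had to raise their differences. Without overfed pool 1, 21 of the 32 genes were above 0, with a median of 0.037 (all genes 0.013). In that fit Angptl4 was at 0.50 (SE 0.11, limma adjusted p 0.658) and Acot1 at 0.49 (SE 0.13, limma adjusted p 0.658). Cpt1a was then at 0.24 and Slc25a20 at 0.24, whereas without lean pool 3 Cpt1a was at -0.037. Without lean pool 3, 9 of the 32 genes were above and 23 below 0, with a median of -0.072 (all genes 0.0076). Without overfed pool 1 the groups lacked overlap in 9 of the 32 genes (28.1%), 6 higher and 3 lower, where 24.4% of all genes had none. The share stayed near that of all genes, and no gene of the list passed the adjusted threshold without overfed pool 1.

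Over 6 further lists 86 genes were measured, with 35 above and 51 below 0, a median difference of -0.017 and 0 past the adjusted threshold. Of the 86, 4 had an unadjusted limma p under 0.05 and 6 had no overlap, all lower in overfed ovaries. Over all genes 7.18% stood at that p, 4.42% lower, and 13.4% had no overlap, 6.35% lower. In peroxisomal oxidation (19 measured of 23 listed, 10 above and 9 below 0) Pecr, the enoyl reductase, was at -0.23 (SE 0.10) and Crot, which makes acylcarnitines for export to mitochondria, at 0.18 (SE 0.094). Among other mitochondrial acyl-CoA genes (18 measured, 4 above and 14 below 0) Acss1, the mitochondrial acetyl-CoA synthetase, had 0.22, 0.22 and 0.15 (lean) against -0.18, -0.15 and -0.15 (overfed). Its 3 pools of each diet lay close together and apart from the others. The difference was -0.35 (SE 0.065), and the limma adjusted p was 0.529. Acot9, a mitochondrial thioesterase, was at -0.14 (SE 0.080).

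Uptake and activation genes (17 measured of 18, 5 above and 12 below 0) had a median of -0.13. Slc22a4, a transporter of the carnitine transporter family that prefers ergothioneine, had 0.66, 0.088 and 0.61 (lean) against -0.088, -0.26 and -1.35 (overfed), a difference of -1.02 (SE 0.34). Overfed pool 3 was by far its lowest pool. Acsl3, another long-chain ligase, was at -0.35 (SE 0.14), without overlap as for Acsl1. Of the ketone body genes (4 measured of 6, 1 above and 3 below 0) Oxct1, which activates ketones for use, was at -0.26 (SE 0.13), and Acat1 at -0.047 (SE 0.23). The other regulators (16 measured of 18, 9 above and 7 below 0) included the mitochondrial deacetylase Sirt3 at -0.22 (SE 0.14) and Acacb, which makes the malonyl-CoA that restrains Cpt1, at -0.18 (SE 0.12). Among other PPAR targets and fuel-choice genes (12 measured, 6 above and 6 below 0) Pdk2 was at -0.36 (SE 0.13) without overlap, and Ucp1 at 0.17 (SE 0.083). The smallest limma adjusted p of all these genes was 0.529.

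Set beside fatty acid synthesis, oxidation lay closer to 0. The 21 synthesis genes had 3 above and 18 below 0 and a median of -0.13, whereas the 32 oxidation genes had a median of -0.018. Fatty acid synthase Fasn was at -0.48 (SE 0.15), with 0.25, 0.054 and 0.63 (lean) against -0.054, -0.20 and -0.26 (overfed). The desaturase Scd was at -0.74 (SE 0.31), with 0.54, -0.16 and 0.88 (lean) against 0.16, -0.48 and -0.63 (overfed), so its groups overlapped. Both genes were highest in lean pool 3, as was the mean of the adipocyte markers. The gene Thrsp was in both lists. The part of fat cells in the synthesis genes was not tested. The 13 genes of mitochondrial content measured of 16 had 4 above and 9 below 0 and a median of -0.054, with the tricarboxylic acid cycle genes Ogdh at -0.23 (SE 0.12) and Idh3a at -0.17 (SE 0.088). The differences between these lists were not tested.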

How the data were processed

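RNA of 6 ovary pools was measured on Affymetrix arrays, 3 lean and 3 overfed. The deposited values, read as log2, had a median within 5e-07 of 0 for each of 31099 probe sets, so the authors' values were centred by probe set. The submitters' processing notes name GCOS. Probe set summary, scaling, filters and log base: not given in the sources used here. Base 2 is an assumption, and with natural logarithms the folds would be larger, while counts by p stay. After 57 control probe sets were left out, 20826 of 31042 probe sets had 1 gene in the platform annotation, 436 several and 9780 none. Symbols were updated through Entrez identifiers, of which a RefSeq table held 20758. Probe sets were averaged over 14217 genes.

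The 2 diets were set against each other by limma 3.58.1 (R 4.3.3) through lmFit and eBayes, without covariates, two-sided p and Benjamini-Hochberg adjustment over all genes at 0.05. The scripts were tested on simulated data. Members, lists and tests were chosen with earlier results of these data known. Every member is named. Values by pool were given for members at an unadjusted p under 0.05, without overlap, with the 4 largest differences in each direction, and for Cpt1a, Cpt1b, Ppara, Ppard, Ppargc1a and Acadvl. Slc25a20, Hsd17b4, Acaa2, Etfdh, Acss1, Slc22a4, Fasn and Scd were given by pool after their values were seen. Other lists gave their 2 genes of lowest unadjusted p, and marker lists their first 2 measured genes. Further marker genes were named after their values were seen. Pairing of samples by pool number is not named in the labels. Same-numbered deviations from the group means correlated at 0.109, 0.153 and -0.375 over genes, which are not independent replicates. For pools of unlike number the correlations ran from -0.449 to 0.485. Such correlations cannot show whether pools were handled in pairs. The table held 0 columns of other series. Alternatives were quantile normalization, array median centring, array weights, a robust prior on a variance trend, blocking on pool number, omission of pools, 1 probe set per gene and a filter on genes of small SD. The last took the place of a filter on dim genes, since centred values hold no levels. Figures were drawn with matplotlib 3.10.9.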

Additional observations from a re-analysis of the deposited data

How the results depend on the processing

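The count of genes past a limma adjusted p of 0.05 was 0 in 12 of 14 other settings, 1 with a variance trend and robust prior and 2 with genes of smaller SD left out, and none of these was one of the 32. The count of genes of the list at an unadjusted limma p under 0.05 was 2 to 4 throughout, where 4.74% to 8.07% of all genes stood there. With any 1 pool left out it was 3 to 4, where 4.74% to 7.93% of all genes stood there. Ehhadh was among these genes of the list in all 14 settings and Acsl1 in 13. The count without overlap was 5 to 9 with 1 pool left out (15.6% to 28.1%, all genes 21.7% to 24.9%), with the 5 (15.6%) seen without lean pool 1, lean pool 3 or overfed pool 3, where all genes had 22.9%, 21.7% and 21.8%, and 10 (31.2%) without lean pool 3 and overfed pool 1, where 35.0% of all genes had no overlap, since fewer pools overlap less often. The median difference was -0.072 to 0.044 with 1 pool left out and 0.0072 without both pools. With 1 probe set per gene, the groups of Ucp3 overlapped and the count without overlap was 3 (9.38%, all genes 13.1%). Of the 32 genes, 13 kept their sign in every setting and 19 did not. With the pool number as a replicate block, 2 genes of the list stood at an unadjusted limma p under 0.05, where 5.59% of all genes did. The median stayed at -0.018 and 0 genes passed. The labels name no pairing by pool number. The 3 pools of each diet limit the precision to the 95% intervals given.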
